A study of Mus musculus with 4 samples.

Results

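The genes described here make, restrain or finish the turnover of the liver's extracellular matrix. They are the matrix metalloproteinases (Mmp), their tissue inhibitors (Timp), the membrane proteases of the Adam family, the secreted Adamts proteases with the related Adamts-like proteins, the lysyl oxidases (Lox and Loxl) that crosslink collagen, and the cathepsins (Cts), most of which are lysosomal proteases. The rule for members used gene symbols and no measured value, but was chosen with earlier results of these data known. Of the 13903 genes in the deposited table, 71 matched. They were 15 Mmp, 4 Timp, 14 Adam, 19 Adamts or Adamts-like, 5 lysyl oxidase and 14 cathepsin genes, 11 of the latter cysteine proteases and 3 aspartic or serine proteases. Of these, 63 averaged 1 CPM or more across the libraries, where CPM is the number of reads on a gene scaled to 1000000 reads on the listed genes. The other 8 (Adam2, Adam22, Adam32, Adamts3, Ctse, Ctsj, Mmp8 and Timp4) were kept out of the counts of called genes.

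RNA was measured by bulk mRNA-seq in liver of OGT-Floxed mice (background C57BL/6J), all fed a CDE diet, the choline-deficient, ethionine-supplemented diet that injures hepatocytes and brings on a ductular reaction and fibrosis. The label OGT-KO stands for mice given AAV8-TBG-CRE and the label control for mice given a virus that carries eGFP under the same promoter, AAV8-TBG-eGFP. TBG is a hepatocyte promoter, so Cre was directed at hepatocytes only and the other liver cells kept the floxed allele. Tissue came either straight from the diet (no recovery) or following a recovery of 7 days. The 4 conditions have 1 library each, of RNA pooled in equal parts from 3 mice, so replicate errors and p-values cannot be given, and mice within a pool cannot be told apart. The ages and sexes of the mice are not given in the sources used here. Intervals below are 95% exact intervals that cover the counting error of the reads only.

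In normal liver, the matrix is a thin layer of collagens and proteoglycans along the sinusoids and around the portal tracts. In chronic injury, hepatic stellate cells become myofibroblasts and deposit fibrillar collagen, while macrophages and other cells secrete proteases that can break it down. Whether scar accumulates depends on the balance between matrix made, proteases such as the collagenases and gelatinases, the Timp proteins that block them, and the lysyl oxidases, whose crosslinks make collagen harder to digest.

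The libraries held 19972699 to 22866431 reads on listed genes, and 3 reads, taken as the smallest level the depth can show, came to 0.131 to 0.150 CPM. The hepatocyte markers Alb, Apoa1 and 8 others summed to 57675 to 93572.5 CPM, so that the labelled tissue had its defining markers in each library. Ogt, the targeted gene, was at 64.7 CPM in control and 55.3 in OGT-KO with no recovery, and at 55.7 and 77.7 after 7 days. The whole-gene value therefore went against the label after 7 days, although it was lower in OGT-KO at that time under upper-quartile and median-ratio scaling (log2 difference of -0.01 and -0.20), and the libraries are called below by their labels. The 100 genes of highest mean took 42.8% and 45.0% of the reads in the control libraries and 34.1% and 34.3% in the libraries labelled OGT-KO. Over the 12989 genes past the filter, the labels differed by a median of 0.64 (log2) with no recovery and of 0.61 after 7 days. Differences of members are also given less this median where it matters.

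Most members had more RNA in the liver labelled OGT-KO at both time points. A gene was called where log2(CPM + 1) differed by at least 1, which is a 2-fold difference on that scale and understates the change of low genes. With no recovery, 47 of the 63 members (74.6%) were called higher in OGT-KO, against 33.5% of all genes tested. None of the 63 was called lower, against 4.6% of all genes. After 7 days, 45 members (71.4%) were called higher, against 32.7% of all genes, and again 0 lower, against 3.5%. At both time points, 42 (66.7%) were higher, against 28.0% of all genes, and 0 were lower, against 2.98%. The median log2 difference of the members was 1.72 with no recovery and 2.01 after 7 days, which is 1.07 and 1.40 above the median of all genes. The split of the calls depends on the scaling. Under median-ratio scaling 36 and 41 members were higher and 1 was lower at each time, against 17.3% and 20.0% of all genes higher and 12.6% and 9.69% lower. In bulk liver, more cells of a type and more RNA per cell cannot be told apart. Of the 63 members, 20 were under 1 CPM in both control libraries and passed the filter only through OGT-KO, so that they could hardly be called anything but higher. Over all 71 members without a filter, 43 were called higher at both time points, against 26.9% of all genes. Among the 38 members with a mean of at least 10 CPM, 24 were, against 19.2% of all genes, and Lox, Mmp7 and Mmp12 passed that filter too only through OGT-KO.

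**Figure D1:**
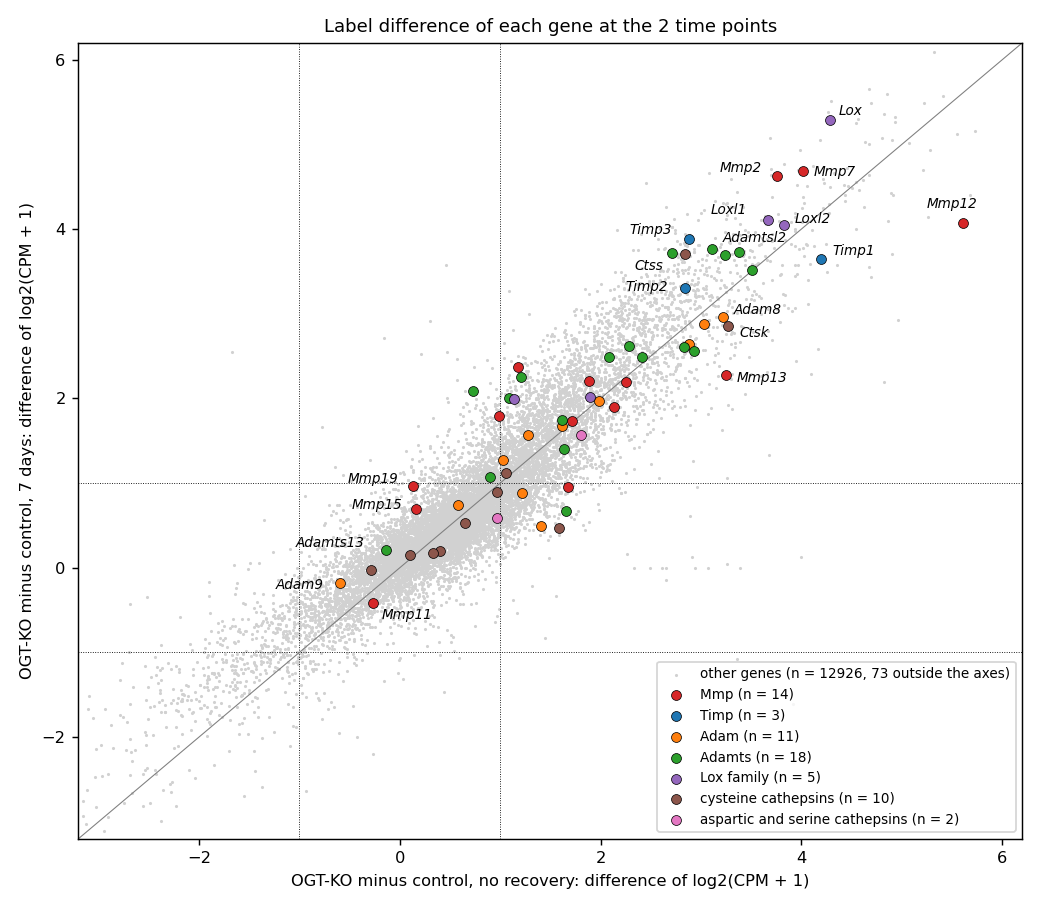
Each point is a gene past the filter, with the OGT-KO minus control difference of log2(CPM + 1) with no recovery on the x axis and after 7 days on the y axis; members are colored by class, other genes are grey, dotted lines mark a 2-fold difference and the solid line equal differences. The 5 lysyl oxidases and the 3 Timp genes lie above 1 on both axes, Mmp12 lies farthest to the right of the members at 5.60, and Mmp11, Adam9 and Ctsf lie below 0 on both.

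The size of the difference varied by class. The summed CPM of the 5 lysyl oxidases was 10.3 times that of control with no recovery (interval 9.20 to 11.5) and 15.3 times after 7 days (13.5 to 17.4). The 4 Timp genes followed at 8.12 (7.55 to 8.74) and 13.9 (12.8 to 15.1), and the Adamts genes at 6.45 (6.09 to 6.84) and 9.61 (9.02 to 10.3). The cysteine cathepsins were at 2.12 (2.09 to 2.15) and 1.64 (1.62 to 1.66), and the aspartic and serine cathepsins at 2.72 (2.65 to 2.80) and 2.18 (2.11 to 2.25). The Adam genes were at 1.91 (1.84 to 1.98) and 2.04 (1.96 to 2.12), and the Mmp genes at 1.66 (1.62 to 1.70) and 1.95 (1.90 to 2.00). Both of the last sums were carried by a member that was not higher in OGT-KO. Without Adam9 the Adam sum was 2.82 and 2.86 times that of control, and without Mmp11 the Mmp sum was 2.58 and 3.13 times. No class sum changed direction under another scaling of the libraries, although under median-ratio scaling the Mmp sum with no recovery and the cysteine cathepsin sum after 7 days came close to equal.

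The matrix metalloproteinases held some of the strongest members and some that were called at neither time. Mmp12, the metalloelastase made mainly by macrophages, was at 0.47 CPM in control and 70.5 in OGT-KO with no recovery, and at 0.60 and 26.0 after 7 days. It was 150 times as high (interval 81.3 to 313) with no recovery, rank 6 of the 12989 genes by its log2 difference of 5.60. Mmp7, or matrilysin, an epithelial protease seen in bile duct cells, was at 0.09 CPM (2 reads) and 16.7 with no recovery, and at 0.40 and 35.0 after 7 days. The ratios were 177 (48.7 to 1468) and 87.4 (44.1 to 203). Mmp13, the main interstitial collagenase of rodents, had 1 read in control against 204 in OGT-KO with no recovery, at 8.92 CPM, a ratio of 190 (33.7 to 7527). After 7 days it had 0 reads in control against 3.86 CPM in OGT-KO, at least 25.7-fold higher when control is set to 3 reads. In control liver Mmp13 was below the smallest measurable level at both times and Mmp7 with no recovery, while Mmp12 had 10 and 12 reads, so the intervals of the ratios are wide. The direction was the same at both times for each of the 3 genes. Mmp8, a neutrophil collagenase of the same chromosome 9 cluster, stayed below 1 CPM, with 0 to 0.71 CPM over the libraries. Mmp27, another gene of the cluster, was at 0.28 and 3.10 CPM with no recovery and at 0.20 and 1.33 after 7 days.

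Mmp7, Mmp12 and Mmp13, all below 1 CPM in control liver, share a short sequence near their starts. They are shown here because they hold it. Of the 71 members, 45 matched RefSeq's promoter table for GRCm38.p6, with 51 windows of 250 bases before to 50 after a start. Both strands were searched for the AP-1 sequence TGANTCA, bound by Fos and Jun proteins. Among the 14 Mmp windows, 3 held it, those of Mmp7, Mmp12 and Mmp13. Among all 51 member windows 4 did, the other being that of Adam19, and 7.81% of the 32851 windows in the table did. The sequence was absent from the windows of Mmp8, Mmp27 and Mmp28, genes also below 1 CPM in both control libraries. The stretches below are the 120 bases before the start, in the direction of the gene, with the AP-1 sequence in capitals, 44, 35 and 63 bases before the start in the order shown. They lie on the plus strand at chr9:7347254-7347373, chr9:7272394-7272513 and chr9:7691970-7692089. The table holds another window for Mmp12 and for Mmp7, without this sequence.
Mmp12: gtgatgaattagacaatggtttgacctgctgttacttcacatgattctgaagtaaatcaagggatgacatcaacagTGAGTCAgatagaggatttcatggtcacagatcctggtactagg
Mmp13: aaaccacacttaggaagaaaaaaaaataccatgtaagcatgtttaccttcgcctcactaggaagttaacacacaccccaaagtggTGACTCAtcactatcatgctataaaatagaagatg
Mmp7: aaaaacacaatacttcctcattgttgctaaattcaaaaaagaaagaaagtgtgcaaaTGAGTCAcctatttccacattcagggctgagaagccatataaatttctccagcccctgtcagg

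The windows of Mmp7, Mmp8, Mmp12 and Mmp13 also held TATAAA, as did 13.6% of all windows, and 7 of the 51 member windows (13.7%). The TATAAA nearest the start lay 16 bases before it for Mmp13 and 26 for Mmp7, but after it for Mmp12. A match is a stretch of letters and not a measured binding site.

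The gelatinase Mmp2 and its membrane-bound activator Mmp14 were also higher in OGT-KO. Mmp2, made by stellate cells and fibroblasts, was at 3.34 CPM in control and 57.6 in OGT-KO with no recovery, and at 2.85 and 94.4 after 7 days. Its ratio was 17.3 (13.6 to 22.2) and 33.1 (25.4 to 43.8). Mmp14, also known as MT1-MMP, was at 34.0 and 166 CPM with no recovery and at 34.2 and 160 after 7 days, a ratio of 4.87 (4.50 to 5.28) and 4.68 (4.31 to 5.08). The other gelatinase, Mmp9, associated with neutrophils and macrophages, was far less abundant, at 0.89 and 3.28 CPM with no recovery and at 0.15 and 4.96 after 7 days. Mmp24, a membrane-type member, had 8.84 and 42.1 CPM with no recovery and 7.26 and 29.9 after 7 days. Mmp23 had 1.22 and 7.22, then 1.25 and 9.35, and Mmp28 had 0.66 and 4.46, then 0.10 and 2.66. Mmp17, another membrane-type member, missed the threshold by little with no recovery, at a log2 difference of 0.99, and was at 1.79 after 7 days.

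The 3 Mmp genes of highest mean CPM were called at neither time. Mmp11, or stromelysin-3, was the most abundant, at 248 CPM in control and 206 in OGT-KO with no recovery and at 208 and 156 after 7 days. Its ratio of 0.83 (0.799 to 0.864) and 0.75 (0.716 to 0.783) lay below 1 at both times but short of 2-fold. Under median-ratio scaling Mmp11 was called lower after 7 days, at a log2 difference of -1.10. Mmp15, or MT2-MMP, was at 81.9 and 92.0 CPM, then at 91.9 and 150, and Mmp19 at 89.0 and 97.3, then at 72.4 and 142. After 7 days both were higher in OGT-KO by more than the median of all genes, but short of 2-fold. With no recovery, the log2 differences of Mmp15 (0.17) and Mmp19 (0.13) fell below 0 under each of the 3 other scalings. In control liver, Mmp11 took 52.8% of all Mmp reads with no recovery and 49.6% after 7 days, and in OGT-KO 26.5% and 19.0%. Over the same libraries Mmp2 went from 0.71% and 0.68% of Mmp reads in control to 7.42% and 11.5% in OGT-KO. A minor part of the exons of Mmp19 (22.3%) and of Mmp11 (5.58%) overlaps a gene on the opposite strand in GENCODE M21, and whether reads were counted by strand is not stated.

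**Figure D2:**
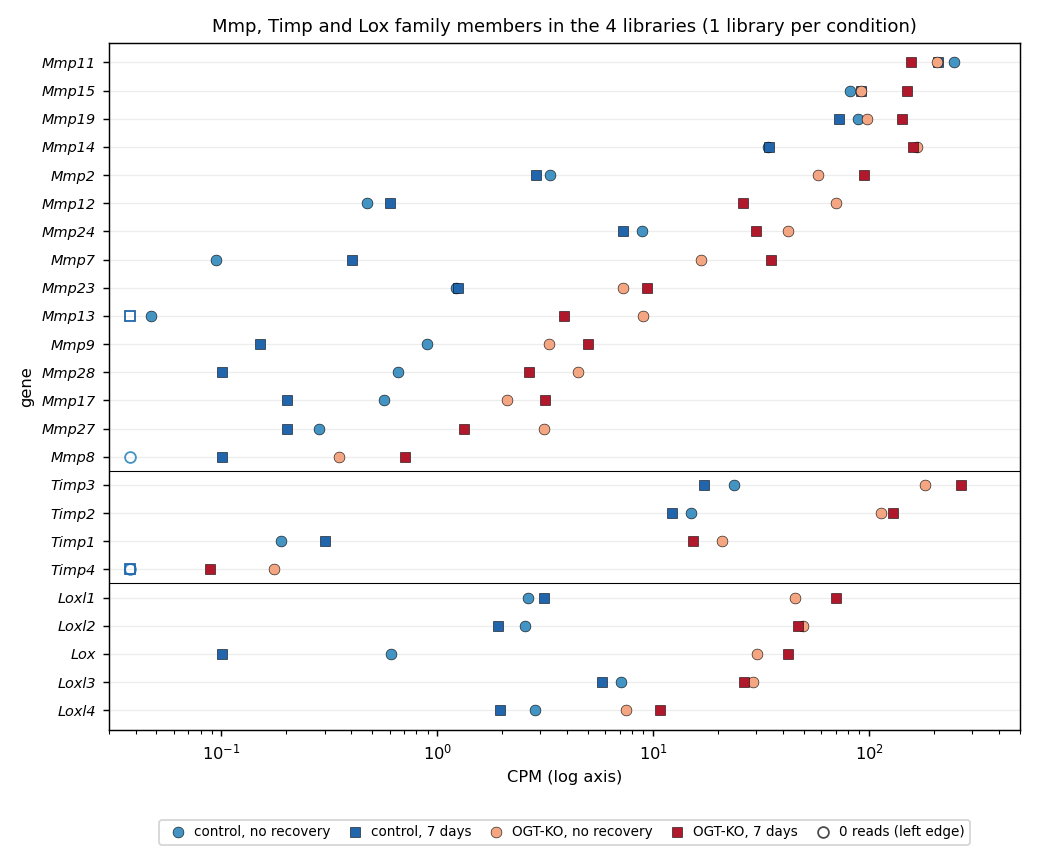
CPM on a log axis for each Mmp, Timp and Lox family gene in the 4 libraries, with blue points for control, orange and red for OGT-KO, circles for no recovery and squares for 7 days; open symbols at the left edge had 0 reads. The points of Mmp11, Mmp15 and Mmp19 all lie between 72.4 and 248 CPM. Mmp12, Mmp7, Timp1 and Lox are split by label over more than a factor of 10.

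The inhibitors were higher as well. Timp1, an acutely inducible inhibitor and a common readout of liver fibrosis, was at 0.19 CPM in control and 20.8 in OGT-KO with no recovery, and at 0.30 and 15.3 after 7 days, a ratio of 110 (42.8 to 407) and 51.0 (23.2 to 140). Timp2, which also takes part in the activation of Mmp2 by Mmp14, was at 15.0 and 113 CPM, then at 12.2 and 129. Timp3, which is held in the matrix and also inhibits Adam17 and several Adamts proteases, was at 23.6 and 181 CPM, then at 17.1 and 266. In both control libraries Timp1 was close to the smallest measurable level, and it was the Timp gene with the largest ratio at both times. Timp4 had 0 reads in both control libraries and 4 and 2 reads in OGT-KO, too few for a statement. Timp1 and Timp3 lie within Syn1 and Syn3 on the opposite strand, and 21.3% of the exon length of Timp3 overlaps Syn3.

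Since Timp RNA differed more than Mmp RNA, the ratio of their reads was lower in OGT-KO. There were 12.1 Mmp reads for each Timp read in control with no recovery (interval 11.3 to 13.0) and 2.47 in OGT-KO (2.40 to 2.54). After 7 days the ratio was 14.2 (13.1 to 15.5) and 1.99 (1.94 to 2.04). The Mmp reads in control were 52.8% and 49.6% Mmp11, and without it the ratio was 5.71 in control and 1.81 in OGT-KO with no recovery, and 7.16 and 1.61 after 7 days. A ratio of reads within a library does not depend on scaling, but it weighs each gene by its length and says nothing of protein or activity. The direction was not the same for each pair. Mmp14 reads per Timp2 read were 2.27 in control and 1.46 in OGT-KO with no recovery, and 2.81 and 1.24 after 7 days. Mmp2 reads per Timp2 read were 0.22 and 0.51, then 0.23 and 0.73, and thus higher in OGT-KO. Per kb of exon, Timp2 was at 3.84 CPM per kb in control and 29.0 in OGT-KO with no recovery, and at 3.12 and 33.2 after 7 days. Mmp14 was at 5.71 and 27.8 CPM per kb, then at 5.75 and 26.9, so that by length these levels were of like size in OGT-KO.

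All 5 lysyl oxidases were called higher at both time points, against 28.0% of all genes. Among the 5, Lox was under 1 CPM in both control libraries and passed the filter only through OGT-KO. Lox itself, which oxidizes lysines of collagen and elastin, was at 0.61 CPM in control and 30.4 in OGT-KO with no recovery. After 7 days it was at 0.10 CPM (2 reads) in control and 41.9 in OGT-KO. Its log2 difference of 4.28 and 5.28 ranked 53 and 17 among the 12989 genes, and the ratio of 418 after 7 days has an interval from 115 to 3458. Loxl1, needed for elastic fibers, was at 2.63 and 45.2 CPM, then at 3.10 and 69.9. Loxl2, which crosslinks collagen IV and fibrillar collagen, was at 2.54 and 49.2 CPM, then at 1.90 and 47.0. Loxl3 was at 7.06 and 29.0 CPM, then at 5.76 and 26.3, and Loxl4 at 2.82 and 7.43, then at 1.95 and 10.7. Per kb of exon, Loxl1 was the highest of the family in OGT-KO, at 13.7 and 21.2 CPM per kb, and Loxl3 in control, at 1.53 and 1.25 CPM per kb.

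The collagens that lysyl oxidases crosslink were higher too. All 10 collagen genes listed were higher in OGT-KO at both times, and their sum went from 256 to 4352 CPM with no recovery and from 193 to 5548 after 7 days. Col1a1 was at 21.0 and 875 CPM, then at 16.5 and 1192. The reads of the 5 lysyl oxidases per Col1a1 read were 0.75 in control and 0.18 in OGT-KO with no recovery, and 0.78 and 0.16 after 7 days. This sum was 45.0% and 44.9% Loxl3 in control, and for Lox alone the direction was the other, with 0.029 and 0.035 reads per Col1a1 read with no recovery and 0.0061 (2 Lox reads) and 0.035 after 7 days. Of 12 other genes of collagen processing past the filter, 5 were higher at both times, against 28.0% of all genes, and none lower. Among them were Plod2, a lysyl hydroxylase that sets the type of crosslink (0.71 and 19.2 CPM, then 0.40 and 16.0), and Serpinh1, the collagen chaperone HSP47 (21.7 and 151, then 11.9 and 199). Of these 5, Plod2 was under 1 CPM in both control libraries and passed the filter only through OGT-KO. Bmp1, the procollagen C-proteinase, was flat, at 131 and 128 CPM, then at 133 and 120, while its enhancer Pcolce was at 7.39 and 41.7, then at 6.91 and 60.3.

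Among the Adamts genes, 14 of the 18 past the filter were higher at both time points, against 28.0% of all genes. Among the 14, Adamts4, Adamts12, Adamts15, Adamts16, Adamtsl1 and Adamtsl3 were under 1 CPM in both control libraries. These passed the filter only through OGT-KO. The procollagen N-proteinase Adamts2, which trims the amino end of fibrillar collagens, was at 5.03 CPM in control and 55.9 in OGT-KO with no recovery, and at 5.11 and 78.1 after 7 days. Its relative Adamts14 was at 2.35 and 6.12, then at 1.001 and 7.05, and Adamts3 stayed at or below 0.40 CPM. Adamts2 reads per Col1a1 read were 0.24 in control and 0.06 in OGT-KO with no recovery, and 0.31 and 0.07 after 7 days. The 5 proteoglycanases, which cut versican and aggrecan, were all higher at both times. Adamts1 was at 8.70 and 73.0 CPM, then at 7.31 and 48.1, and Adamts4 at 0.80 and 11.8, then at 0.60 and 8.77. Adamts5 was at 2.16 and 19.7 CPM, then at 1.60 and 33.2, and Adamts9 at 1.13 and 21.2, then at 1.70 and 34.9. Adamts15 was at 0.99 and 8.66 CPM, then at 0.95 and 10.9. Adamts1 and Adamts4 were thus higher in OGT-KO with no recovery than after 7 days, and Adamts5 and Adamts9 the other way round.

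Adamtsl2, an Adamts-like protein without protease activity that binds microfibrils and TGF-beta binding proteins, was the most abundant of this class. It was at 8.19 CPM in control and 78.2 in OGT-KO with no recovery, and at 9.26 and 138 after 7 days, a ratio of 9.56 (8.18 to 11.2) and 14.9 (12.9 to 17.4). Adamtsl4 was at 3.34 and 22.1 CPM, then at 2.60 and 19.3. Adamts12 was at 0.42 and 15.1 CPM, then at 0.40 and 15.1, with almost the same pair of values at both times. Adamts10 had 10.7 and 48.8 CPM, then 9.11 and 55.9. Adamtsl1 and Adamtsl3 stayed below 5 CPM in each library but were called higher at both times. Adamts6 and Adamts7 were called at 1 time each. Adamts6 was at 0.66 and 4.24 CPM with no recovery and at 2.00 and 3.77 after 7 days, and Adamts7 at 9.41 and 16.3, then at 4.81 and 23.6. Adamtsl5, at 1.22 and 3.15 CPM, then at 0.80 and 2.79, was called after 7 days only. Adamts16 had 0.09 and 1.53 CPM, then 0.20 and 4.70. The exception was Adamts13, the von Willebrand factor protease made in the liver by stellate cells. It was at 5.50 and 4.90 CPM with no recovery and at 3.05 and 3.68 after 7 days, and its ratio was 0.89 (0.681 to 1.16) and 1.20 (0.855 to 1.70). Both intervals hold 1 on the CPM scale, but the value depends on scaling, since its log2 difference was 0.79 and 0.40 below the median of all genes and that after 7 days changed sign under upper-quartile and median-ratio scaling.

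**Figure D3:**
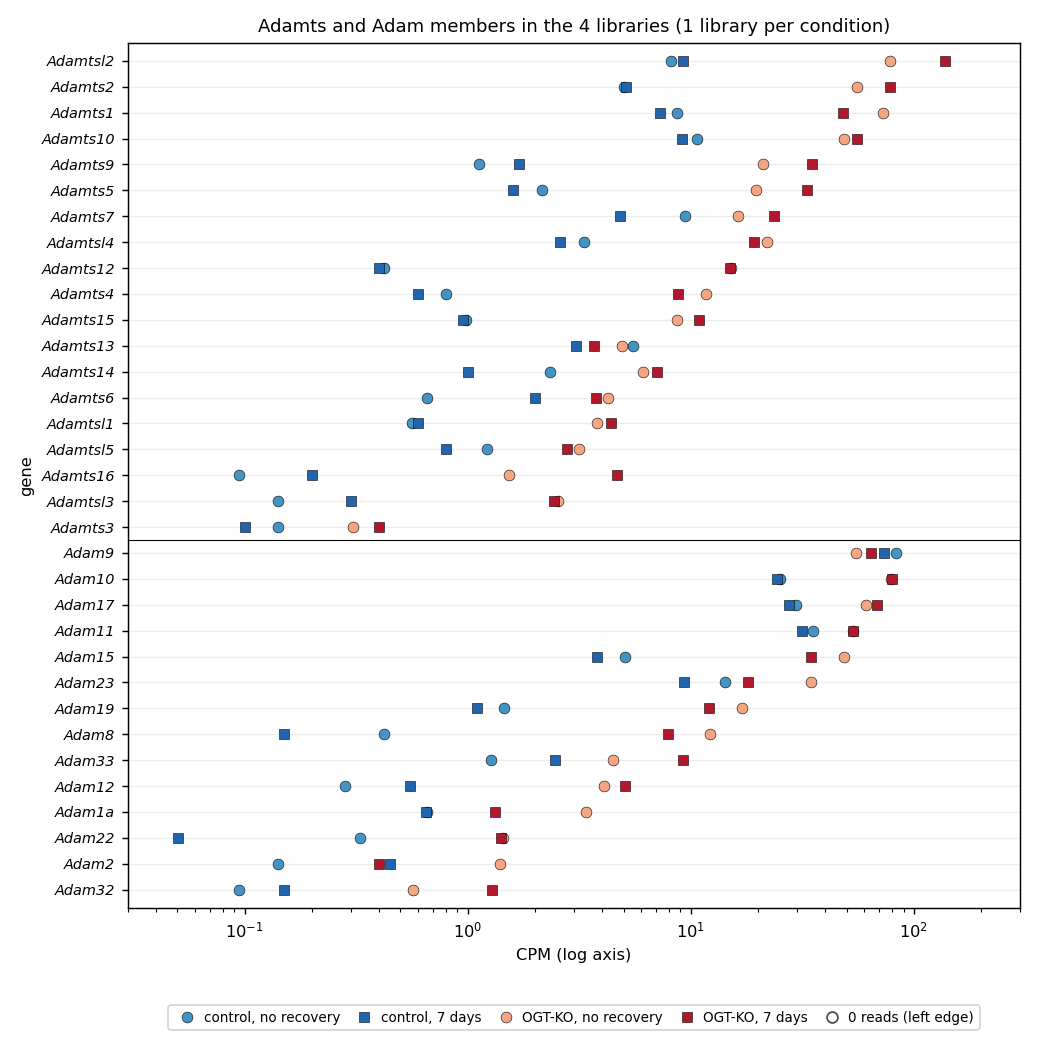
CPM on a log axis for each Adamts and Adam gene in the 4 libraries, with blue points for control, orange and red for OGT-KO, circles for no recovery and squares for 7 days. Adamtsl2 and Adamts2 show a wide gap between labels, while the points of Adamts13 (3.05 to 5.50 CPM) and Adam9 (55.2 to 83.6 CPM) are mixed or reversed.

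Of the Adam genes, 7 of the 11 past the filter were higher at both times, against 28.0% of all genes. Among the 7, Adam8 and Adam12 were under 1 CPM in both control libraries and passed the filter only through OGT-KO. The widely expressed sheddases Adam10, which cleaves Notch receptors, and Adam17, which releases TNF and ligands of the EGF receptor, differed moderately. Adam10 was at 25.1 CPM in control and 79.2 in OGT-KO with no recovery, and at 24.5 and 80.2 after 7 days. Adam17 was at 29.5 and 61.2 CPM, then at 27.7 and 68.6. Larger ratios were seen for Adam15 (5.08 and 48.7 CPM, then 3.81 and 34.5) and Adam19 (1.46 and 17.1, then 1.10 and 12.1). Adam8, a protease of myeloid cells, was at 0.42 and 12.2 CPM, then at 0.15 and 7.93. Adam12, expressed by activated stellate cells, was at 0.28 and 4.07 CPM, then at 0.55 and 5.05, and Adam33 at 1.27 and 4.50, then at 2.45 and 9.22. Adam23 (14.3 and 34.5 CPM, then 9.36 and 18.1) and Adam1a (0.66 and 3.41, then 0.65 and 1.33) were called with no recovery only, and 63.7% of the exon length of Adam1a is shared with another model on the same strand. Adam11 was at 35.3 and 53.3 CPM, then at 31.5 and 53.3, and its difference with no recovery fell below 0 under median-ratio scaling. The 3 members under the filter, Adam2, Adam22 and Adam32, had at most 1.44 CPM. Adam9 alone among the more abundant Adam genes was lower in OGT-KO, at 83.6 and 55.2 CPM, then at 73.5 and 64.7, a ratio of 0.66 (0.613 to 0.710) and 0.88 (0.818 to 0.947). Under upper-quartile and median-ratio scaling Adam9 was called lower with no recovery. It was 42.3% and 41.8% of all Adam reads in the control libraries and 14.7% and 18.1% in OGT-KO.

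By their median, the cysteine cathepsins were the class closest to all genes. Of the 10 cysteine cathepsins past the filter, 3 were higher at both times (Ctsb, Ctsk and Ctss), against 28.0% of all genes. Among the 3, Ctsk was under 1 CPM in both control libraries and passed the filter only through OGT-KO. The median log2 difference of the 10 was 0.81 with no recovery and 0.50 after 7 days. These values were 0.16 above and 0.10 below the median of all genes. Ctss, the cathepsin of macrophages and other antigen-presenting cells, was at 28.0 CPM in control and 207 in OGT-KO with no recovery, and at 11.2 and 159 after 7 days, a ratio of 7.40 (6.79 to 8.07) and 14.1 (12.4 to 16.3). Ctsk, a strong collagenase known from osteoclasts, was at 0.14 CPM (3 reads) and 10.01 with no recovery, and at 0.25 and 8.02 after 7 days. The abundant Ctsb was at 574 and 1196 CPM, then at 490 and 1068. Ctsl was at 410 and 1230 CPM with no recovery but at 570 and 792 after 7 days, a ratio of 3.00 (2.93 to 3.07) and 1.39 (1.36 to 1.42). The second value fell below 1 under upper-quartile and median-ratio scaling.

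None of the other cysteine cathepsins past the filter was called at either time. Ctsh had 194 and 209 CPM, then 191 and 213, Ctsz 225 and 282, then 228 and 257, and Ctso 35.9 and 47.8, then 41.4 and 47.6. These 3 changed sign at both times under median-ratio scaling. Ctsf was at 23.9 and 19.3 CPM, then at 20.3 and 19.9. Ctsc, which activates granule proteases of leukocytes, was at 79.4 and 125 CPM, then at 76.1 and 110, a ratio of 1.57 (1.48 to 1.67) and 1.45 (1.36 to 1.55), which fell below 1 at both times under median-ratio scaling. Ctsw, known from cytotoxic lymphocytes, was at 0.94 and 2.80, then at 0.85 and 2.44. Ctsj, which has close placental copies, had 0 and 2.36 CPM, then 0.05 and 0.27. Per kb of exon, Ctsz had the highest mean of all members and differed little between libraries, from 156 to 196 CPM per kb. Of the aspartic and serine cathepsins, Ctsd was at 144 and 506 CPM, then at 124 and 369, and Ctsa, also called protective protein, at 152 and 299, then at 149 and 225, the second pair turning direction under median-ratio scaling. Ctse had at most 1.66 CPM. In GENCODE M21, 34.4% of the exon length of Ctsd is shared with a model on the same strand and 26.8% of that of Ctsl with an antisense gene, so their levels are less certain.

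**Figure D4:**
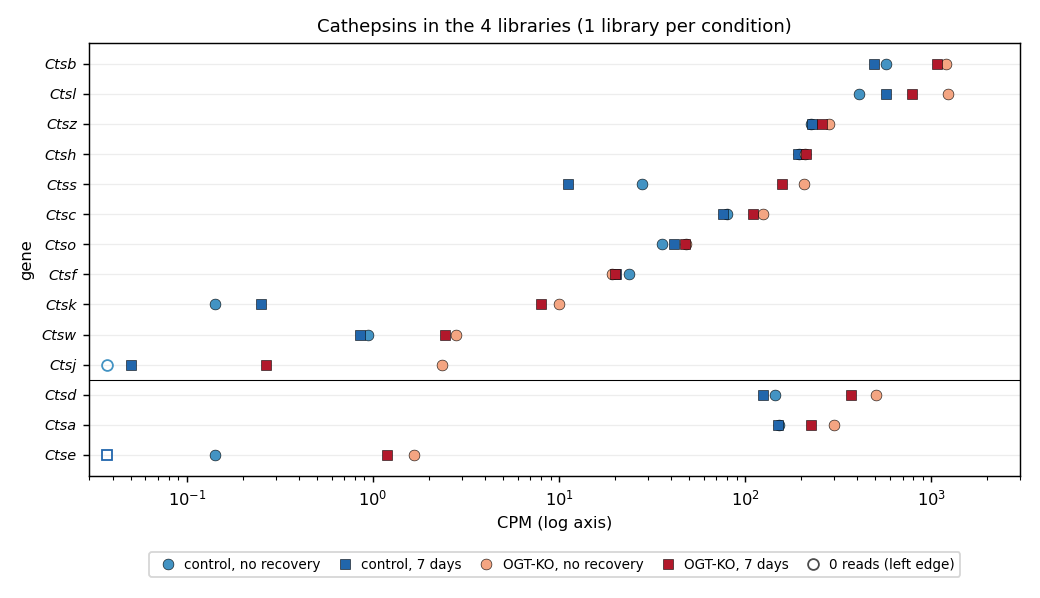
CPM on a log axis for each cathepsin in the 4 libraries, with blue points for control, orange and red for OGT-KO, circles for no recovery and squares for 7 days; open symbols at the left edge had 0 reads. Ctss and Ctsk are split by label, while the points of Ctsz, Ctsh, Ctso and Ctsf lie close together.

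Promoters of cathepsins held the E-box CACGTG, the core of the site of TFEB, a regulator of lysosome genes. It was found in the windows of Ctsa, Ctsd, Ctsf and Ctsl, and in those of Adam10, Adam19 and Mmp7, which is 7 of 51 member windows (13.7%) against 7.15% of all windows. The members that held it were not alike in the data, since Ctsd was called higher at both times and Ctsf was not. The window of Ctsd, on the minus strand, had it 245 and 98 bases before the start and is shown without the bases after the start, chr7:142387828-142388077, with CACGTG in capitals.
Ctsd: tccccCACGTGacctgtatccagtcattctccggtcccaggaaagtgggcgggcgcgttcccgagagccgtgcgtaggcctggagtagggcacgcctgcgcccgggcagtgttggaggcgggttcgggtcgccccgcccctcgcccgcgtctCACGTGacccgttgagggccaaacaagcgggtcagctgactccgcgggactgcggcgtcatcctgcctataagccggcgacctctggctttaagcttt

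Other lysosome genes were called at about the rate of all genes. Of the 14 listed outside the rule, 4 were higher at both times, against 28.0% of all genes, and none was lower. Their median log2 difference was 0.41 with no recovery and 0.70 after 7 days, against 0.64 and 0.61 for all genes. Lamp2, a lysosomal membrane protein, was at 457 and 315 CPM, then at 456 and 376, and Gaa, the acid alpha-glucosidase, at 122 and 117, then at 105 and 107. Hexa, a subunit of a lysosomal hexosaminidase, was at 49.7 and 136 CPM, then at 45.5 and 101, and Psap, the saposin precursor, at 489 and 1034, then at 402 and 875. Tfeb itself was at 8.23 and 9.53 CPM, then at 8.11 and 10.5. Lgmn, the protease that processes several cathepsins, was at 57.1 and 273 CPM, then at 40.3 and 216. The cathepsin inhibitor Cstb was at 22.4 and 74.3 CPM, then at 20.7 and 69.0, and the secreted inhibitor Cst3 at 96.9 and 185, then at 94.8 and 179.

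The plasminogen system, which activates several Mmp proenzymes, had members in both directions. Plg and Serpinf2, plasma proteins made by hepatocytes, were lower in OGT-KO at both times, Plg at 2587 and 879 CPM, then at 2814 and 1192. The activators and their receptor were higher at both times. Plat, the tissue activator, was at 0.42 and 55.5 CPM, then at 0.30 and 117, and Plau, the urokinase, at 0.89 and 13.6, then at 1.30 and 10.7. Its receptor Plaur was at 0.56 and 21.9 CPM, then at 0.55 and 12.0. Plat and Plaur were under 1 CPM in both control libraries and passed the filter only through OGT-KO. Of 7 further inhibitors and activators of metalloproteases, 2 were higher at both times, against 28.0% of all genes, the membrane-anchored inhibitor Reck (2.31 and 5.99 CPM, then 1.60 and 11.3) and Sparc (57.8 and 602, then 35.9 and 799). Furin, which activates membrane-type Mmp and Adam proenzymes, was flat at 322 to 342 CPM, and the plasma inhibitor Pzp was at 5336 and 2733, then at 5709 and 2917.

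Markers of several liver cell types moved with the members, and their part in the result was not tested. The 10 stellate cell and myofibroblast markers were all higher at both times, and their sum was 193 and 1035 CPM with no recovery and 135 and 980 after 7 days. Of the 10 macrophage and Kupffer cell markers, 8 were higher at both times, against 28.0% of all genes, with sums of 350 and 1425, then 129 and 1048. Of 7 monocyte and neutrophil markers past the filter, 6 were higher at both times (sums of 4.70 and 53.5, then 3.10 and 84.3). All 7 were under 1 CPM in both control libraries and passed the filter only through OGT-KO. They could hardly be called anything but higher. Of 7 cholangiocyte markers, 6 were higher at both times (76.9 and 1207, then 96.9 and 1538), and among these Cldn4 passed the filter only through OGT-KO. Of 8 endothelial markers 2 were, close to the 28.0% of all genes (sums of 279 and 556, then 191 and 411). The median log2 differences of these 8 were 1.02 with no recovery and 0.86 after 7 days, against 0.64 and 0.61 for all genes. Of 10 hepatocyte markers, 4 were lower at both times, against 2.98% of all genes, and none higher, against 28.0%. Their sums were 85973 and 57675, then 93572.5 and 69101. The 2 lymphocyte markers past the filter were not called at both times, and Cd8a was at 0 in control after 7 days. No defining marker of stellate cells, macrophages or cholangiocytes was at 0 in any library.

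During recovery the members changed little in comparison. From no recovery to 7 days in control, 0 of the 63 members were called higher, against 0.239% of all genes, and 1 was called lower, against 1.02%. With a pseudocount of 0.1 in place of 1, 2 were higher, against 1.35% of all genes, and 7 lower, against 3.83%. The gene called lower with a pseudocount of 1 was Ctss, which went from 28.0 to 11.2 CPM, a ratio of 0.40 (0.342 to 0.468). All 10 macrophage and Kupffer cell markers were also called lower in this comparison, their part in the fall of Ctss was not tested, and the monocyte and neutrophil sum was 4.70 and 3.10 CPM. In OGT-KO, 2 members were called higher over the 7 days (Mmp7 and Adamts16), against 1.31% of all genes, and 2 lower (Mmp12 and Mmp13), against 0.708%. Mmp12 went from 70.5 to 26.0 CPM, a ratio of 0.37 (0.335 to 0.406), and Mmp13 from 8.92 to 3.86, a ratio of 0.43 (0.332 to 0.558). Mmp7 went from 16.7 to 35.0 CPM, a ratio of 2.10 (1.86 to 2.38), and Adamts16, a little-studied member, from 1.53 to 4.70, a ratio of 3.07 (2.08 to 4.63). Of the 3 genes shown with an AP-1 sequence, Mmp12 and Mmp13 fell and Mmp7 rose in OGT-KO. The part of this sequence was not tested. The macrophage and Kupffer cell markers summed to 1425 and 1048 CPM and the cholangiocyte markers to 1207 and 1538 in these libraries, and neither sum was tested against the members.

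Several members short of 2-fold went in opposite directions in the labels, a difference that was not tested. Timp3 went from 23.6 to 17.1 CPM in control and from 181 to 266 in OGT-KO, and Lox from 0.61 to 0.10 and from 30.4 to 41.9. Ctsl went the other way, from 410 to 570 CPM in control and from 1230 to 792 in OGT-KO, so that Ctsl reads per Ctsb read were 0.71 and 1.16 in control and 1.03 and 0.74 in OGT-KO. The summed CPM of the members of a class in OGT-KO changed between the time points by a factor of 0.74 (aspartic and serine cathepsins) to 1.31 (Timp).

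**Figure D5:**
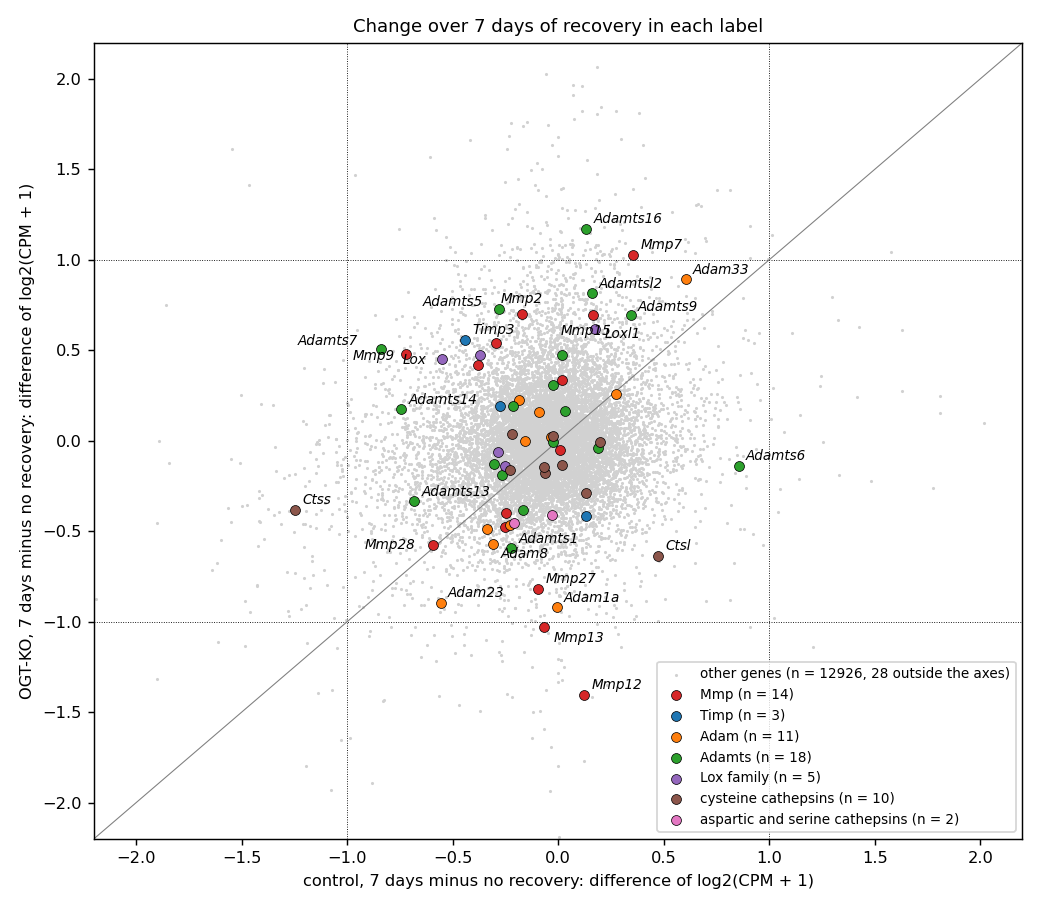
Change of log2(CPM + 1) from no recovery to 7 days for each gene past the filter, in control on the x axis and in OGT-KO on the y axis; members are colored by class, other genes are grey, and dotted lines mark a 2-fold change. Ctss lies at -1.25 on the control axis, Mmp12 and Mmp13 lie at -1.40 and -1.03 and Adamts16 and Mmp7 at 1.17 and 1.03 on the OGT-KO axis, and Ctsl lies at 0.47 in control and -0.64 in OGT-KO.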

How the data were processed

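mRNA libraries of total RNA from liver were made with a Tecan universal plus kit, per the labels, and the authors deposited a table of CPM for 13903 genes, in which each of the 4 libraries sums to 1000000. The submitters' processing notes name STAR, DESeq2 and the build GRCm39, with no versions or roles. The values of each library were whole multiples of that of 1 read for 100.0% of genes (tolerance 0.01 reads), so whole reads were recovered. The article that goes with the series has no CDE diet experiment, and its methods were not used. All sample columns were used.

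Python 3.11.15 was used with numpy 2.4.6, pandas 2.3.3, scipy 1.17.1 and matplotlib 3.10.9. Fold changes are differences of log2(CPM + 1), and genes averaging 1 CPM or more were called at 2-fold. With 1 library per condition, no test between conditions was made. Intervals are exact Clopper-Pearson or conditional binomial intervals at 95% and cover counting error only, as does the floor of 3 reads. Exon lengths and overlaps were taken by gene identifier from GENCODE M21 (GRCm38), and promoter windows by symbol from RefSeq. Members were named if they were Timp or Lox family genes, among the 3 of highest mean in another class, called in the same direction at both times, called between times, or opposite between times beyond counting error. Members, gene lists and rules were chosen with earlier results of these data known, and single members outside the naming rule were chosen after their values were seen. Values of some genes of these lists are not reported here. Alternatives were other pseudocounts, filters, scalings and thresholds, and an exact binomial test on the reads of 2 libraries, which compares libraries and not conditions.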

Additional observations from a re-analysis of the deposited data

Results flagged for a closer look

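For 8 members the change from no recovery to 7 days had opposite directions in the 2 labels, each beyond its own counting interval. The difference between the labels was not tested, since there is 1 library per condition. On the log2(CPM + 1) scale, the change in OGT-KO less that in control was 1.35 for Adamts7, which went from 9.41 to 4.81 CPM in control and from 16.3 to 23.6 in OGT-KO. It was 1.20 for Mmp9, at 0.89 and 0.15 CPM in control and 3.28 and 4.96 in OGT-KO, and 1.002 for Lox, which had 2 reads in control after 7 days. It was 0.999 for Timp3, 0.47 for Timp2 and 0.83 for Mmp19. For these 6 genes the 7-day value was the lower in control and the higher in OGT-KO. The difference was 0.41 for Adam9, with control lower and OGT-KO higher after 7 days, from 83.6 to 73.5 and from 55.2 to 64.7 CPM. Ctsl was the exception in direction, with a difference of -1.11. It went from 410 to 570 CPM in control and from 1230 to 792 in OGT-KO. No member had opposite label differences at the 2 time points beyond counting error.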

How the results depend on the processing

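With 1 library per condition no library could be left out, and no paired analysis was possible because the groups hold 1 library each. Of the 628 recomputed values of named members, none that was 2-fold or more changed sign. This outcome was fixed in advance. Another pseudocount or mean limit cannot turn a sign, and no scaling moved the ratios between libraries by as much as 2-fold. Below 2-fold, label differences of Mmp15, Mmp19, Ctsa, Ctsl and Ctsz changed sign under other scalings. The class sums moved with the scaling, all by the same step. On the log2 scale and in the order Mmp, Timp, Adam, Adamts, lysyl oxidases, cysteine cathepsins, aspartic and serine cathepsins, the ratios with no recovery were 0.73, 3.02, 0.93, 2.69, 3.36, 1.08 and 1.45. They were 0.25, 2.54, 0.45, 2.21, 2.88, 0.60 and 0.96 under upper-quartile scaling, 0.0087, 2.30, 0.21, 1.97, 2.64, 0.36 and 0.73 under median-ratio scaling and 0.51, 2.80, 0.71, 2.47, 3.14, 0.86 and 1.22 with totals that leave out the 100 highest genes. After 7 days the ratios of 0.96, 3.80, 1.03, 3.27, 3.93, 0.72 and 1.12 became 0.48, 3.31, 0.54, 2.78, 3.45, 0.23 and 0.64, then 0.28, 3.11, 0.34, 2.58, 3.25, 0.030 and 0.44 and 0.70, 3.53, 0.76, 3.00, 3.67, 0.45 and 0.86 in the same order of scalings. Without the highest member of each class they were 1.37, 3.15, 1.497, 2.58, 3.15, 1.10 and 0.98 with no recovery, and 1.65, 3.54, 1.52, 3.08, 3.70, 0.50 and 0.60 after 7 days.

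The members' median log2 difference was 1.42, 1.27 and 1.58 with no recovery and 1.65, 1.49 and 1.81 after 7 days under these 3 scalings, chosen for this value and for Ogt after the data were seen. Under median-ratio scaling 1 member was called lower at each time (Adam9, then Mmp11). Under upper-quartile scaling 1 member (Adam9) was lower with no recovery. Under both, 1 member fell in OGT-KO during recovery in place of 2. Ogt differed by -0.69, -0.93 and -0.44 with no recovery under the 3 scalings, and by -0.0053, -0.20 and 0.21 after 7 days, where 2 of the values turned the direction. The cause of these shifts was not tested.

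A pseudocount of 10 left 29, 27 and 25 members higher with no recovery, after 7 days and at both times (11.8%, 12.3% and 9.20% of all genes), and for recovery 0 lower in control, 0 higher and 1 lower in OGT-KO. A mean of at least 10 CPM left 26, 25 and 24 (24.4%, 22.9% and 19.2% of all genes), with 1 higher and 1 lower during recovery in OGT-KO. A 4-fold threshold left 27, 32 and 26 (10.4%, 13.0% and 8.96% of all genes), and 0 in each direction during recovery. A pseudocount of 0.1 gave 2 higher and 7 lower in control (1.35% and 3.83% of all genes) and 4 lower in OGT-KO (1.23%) during recovery. The higher limits and pseudocount remove low members by construction. The binomial test on the reads kept the counts as they were, since 11450 of 12989 genes passed it with no recovery. Depth limits what can be said of 7 members at 0 to 3 reads in both control libraries, which are Adam32, Adamts3, Ctse, Ctsj, Mmp8, Mmp13 and Timp4.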
